A study of Mus musculus with 9 samples.

Results

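A group of 33 genes stood higher in primed mEpiSCs at P5 than in every other pluripotent culture of this mouse series. They were selected on the measured values themselves. A gene was a member if its level in primed P5 cells was at least 10 and at least 4 times its level in naïve P5, naïve P15 and primed P15 cells. Level here means CPM (counts scaled to a library total of 1000000) plus 0.5, averaged over the 2 libraries of a group. Of 54232 gene IDs counted, 10410 had a level of at least 10 in primed P5 cells and 36 met all the thresholds. The 3 keratins among them (*Krt8*, *Krt18* and *Krt19*) were left out by the rule, which admits no keratin or claudin gene. Because the rule used the primed P5 libraries, the height of the 33 genes in those libraries is given as a description without a test.

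The cells were the OG2 mouse ESC line of C57 x CBA background, which carries GFP under the distal *Oct4* promoter in all 4 pluripotent groups. Naïve mESCs were kept in S/L medium (serum and LIF), and primed mEpiSCs were derived from them by culture in F/A medium (Fgf2 and Activin A, without serum). Both states grew on mitomycin C-treated mouse embryonic fibroblasts (MEFs), and each was sequenced at P5 and at P15 with 2 libraries per group, beside 1 library of MEFs. The study calls the 2 libraries biological repeats of 1 line, and since nothing says that they came from separate cultures, the p-values measure only the spread between these libraries, which may be technical. The naïve and primed media, the passaging method and the state differ together and cannot be told apart.

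Naïve pluripotency corresponds to the epiblast before implantation and primed pluripotency to the epithelial epiblast after it. In the embryo the primed epiblast lies against the visceral endoderm, whose anterior part secretes Wnt and Nodal antagonists. Epiblast cells then give rise to anterior neural tissue, heart mesoderm and the other germ layer derivatives. Cultures of mEpiSCs need Fgf and Activin signals and often hold some cells that have begun to differentiate. Since whole cultures were sequenced, fewer cells of a type and less RNA per cell cannot be told apart.

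The total count was between 14378051 and 20985136 in the 8 pluripotent libraries and 25646547 in the MEF library, so that 3 counts, the limit that a count of 0 allows, correspond to 0.143 to 0.209 CPM and 0.117 CPM respectively (counting error only). Of the 10 primed epiblast markers used to check the labels, 9 were higher and 0 lower in primed than in naïve cells at each passage, and of 10 naïve markers 10 were lower at P5 and 9 at P15. Transcripts of fibroblast markers were present in all pluripotent libraries, and whether they came from the MEFs under the cultures was not tested. The 30 fibroblast markers, none of them at 0 in any library, summed to 12006 and 12298 CPM in primed P5, 14311 and 14518 CPM in naïve P5, 19648 and 20358 CPM in primed P15, 22704 and 23861 CPM in naïve P15 and 92542 CPM in MEFs. The sum was lowest in primed P5, but single markers differed in direction. The median marker was at 17.4% and 18.5% of its MEF level in primed P5, 17.6% and 17.9% in naïve P5, 22.5% and 23.8% in naïve P15 and 24.8% and 25.6% in primed P15. *Col1a1*, the fibrillar collagen with the largest share of the MEF sum, had a mean of 865 CPM in primed P5 and 2025 CPM in naïve P5, while *Dcn* (522 against 38.5 CPM), *Lum* (99.4 against 11.5 CPM) and *Mmp2* (316 against 101 CPM) were higher in primed P5. The part of these differences in the results was not tested.

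The 33 genes are all protein coding. By what their products are known to do, 6 encode secreted or matrix proteins, 6 encode membrane and adhesion proteins of epithelia, 4 are transcription factors, 4 belong to striated muscle, 4 act in transport or endocytosis and 9 have other or less settled roles. Together they gave 1249 and 1236 CPM in the primed P5 libraries, against 138 and 135 CPM in naïve P5, 109 and 112 CPM in naïve P15 and 201 and 209.6 CPM in primed P15. The smallest of the 3 ratios that the rule compares had a median of 4.94 over the 33 genes and ranged from 4.05 (*Sel1l3*) to 17.9 (*Myh7*). For 23 genes the nearest group was primed P15, for 8 it was naïve P5 and for 2 naïve P15. The primed P5 libraries differed by at most 1.23-fold in these genes, with a median SD of 3.24% of the mean. The membership depended on the scaling: with library sizes corrected by TMM, whose factor was 1.13 in both primed P5 libraries and 0.944 to 1.01 in the other 6, 20 of the 33 genes met the rule and none joined. The 13 that did not were *Capn6*, *Foxd4*, *Lrp2*, *Mcoln3*, *Ppp1r16b*, *Rab25*, *Rbm24*, *Rgl3*, *Sel1l3*, *Sema3b*, *Six3*, *Spink1* and *Tnnt1*.

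**Figure D1:**
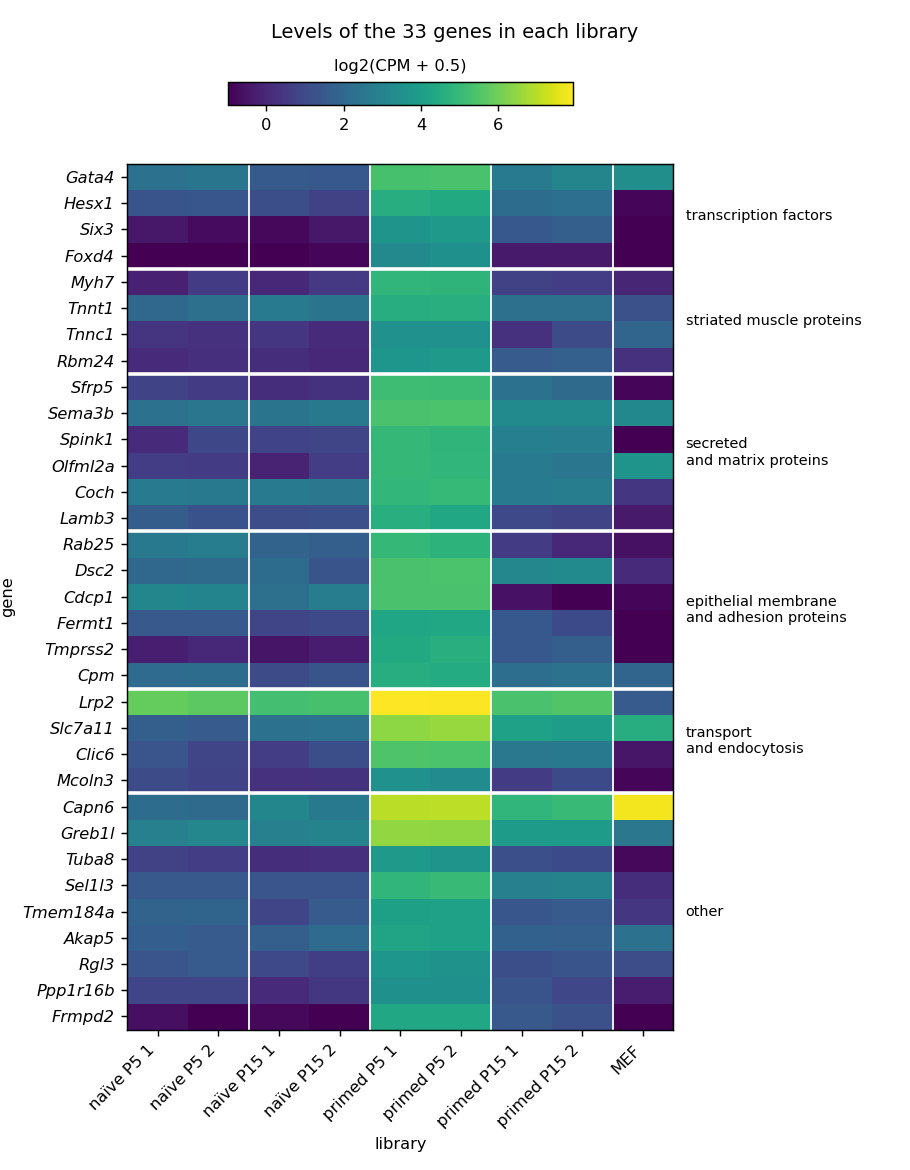
Level of each of the 33 genes (rows, grouped by role) in each of the 9 libraries (columns), as log2 of CPM plus 0.5 on the colour scale. The primed P5 columns are the brightest in every row except that of *Capn6*, which was brighter in the MEF library.

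Transcription factors of early patterning numbered 4 among the 33 genes. *Gata4*, a zinc finger factor of the primitive endoderm and the heart (ENSMUSG00000021944, chromosome 14, positions 63198922 to 63271692, minus strand), was at 39.9 and 40.9 CPM in primed P5, 4.67 and 5.02 CPM in naïve P5, 2.36 and 2.25 CPM in naïve P15 and 5.97 and 7.89 CPM in primed P15. The lowest primed P5 value was above every value of the other groups, and the naïve libraries differed by passage. *Hesx1*, a homeobox repressor of the anterior neural plate, was at 23.5 and 21.2 CPM in primed P5, 2.0 and 2.15 CPM in naïve P5, 1.74 and 1.22 CPM in naïve P15 and 4.0 and 4.26 CPM in primed P15. *Six3*, a homeobox factor of the forebrain and eye (ENSMUSG00000038805, chromosome 17, positions 85613608 to 85629302, plus strand), was at 11.9 and 13.3 CPM in primed P5, 0.238 and 0.0957 CPM in naïve P5, 0.0696 and 0.243 CPM in naïve P15 and 2.26 and 2.76 CPM in primed P15. The naïve libraries held at most 5 counts of *Six3*, while all primed libraries were well above them.

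*Foxd4*, a forkhead factor (ENSMUSG00000051490, chromosome 19, positions 24899236 to 24901197, minus strand), had 155 and 171 counts in primed P5, 0 and 0 counts in naïve P5, 0 and 1 counts in naïve P15 and 5 and 5 counts in primed P15. Its primed P5 mean of 9.73 CPM was at least 67.9-fold higher than in naïve P5, taken against 3 counts per library. *Foxd4* lay just inside the level threshold, and primed P15 retained 2.97% of its primed P5 level. The other transcription factors retained 17.1% (*Gata4*), 18.5% (*Hesx1*) and 19.9% (*Six3*).

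Genes of slow and cardiac muscle formed a second group. *Myh7*, the beta myosin heavy chain of heart and slow muscle (ENSMUSG00000053093, chromosome 14, positions 54970684 to 54994626, minus strand), was at 28.7 and 27.6 CPM in primed P5, 0.381 and 0.957 CPM in naïve P5, 0.487 and 0.912 CPM in naïve P15 and 1.16 and 1.04 CPM in primed P15. The highest value outside primed P5 was 23.8 times below the lower primed P5 library, and primed P15 retained 3.9% of the primed P5 mean CPM. *Myh6*, the neighbouring alpha myosin heavy chain gene of similar sequence, was at 2.14 and 2.64 CPM in primed P5, 2.24 and 3.4 CPM in naïve P5, 3.27 and 3.22 CPM in naïve P15 and 0.232 and 0.23 CPM in primed P15, so that both genes were lower in primed P15 than in primed P5, while *Myh6*, unlike *Myh7*, did not exceed the naïve range in primed P5. How reads matching both were counted is not given in the sources used here.

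*Tnnc1*, the troponin C of heart and slow muscle (ENSMUSG00000091898, chromosome 14, positions 31208312 to 31211729, plus strand), was at 11 and 11 CPM in primed P5, 0.81 and 0.717 CPM in naïve P5, 0.835 and 0.547 CPM in naïve P15 and 0.695 and 1.55 CPM in primed P15. *Tnnt1*, the troponin T of slow skeletal muscle, was at 23 and 24.1 CPM in primed P5, 3.57 and 4.45 CPM in naïve P5, 5.7 and 4.86 CPM in naïve P15 and 4.4 and 4.38 CPM in primed P15. The primed P15 libraries lay within the naïve range for *Tnnt1*, and for *Tnnc1* one lay inside it and the other above. *Rbm24*, an RNA-binding protein that governs splicing in heart and muscle, was at 12.6 and 13.9 CPM in primed P5, 0.572 and 0.67 CPM in naïve P5, 0.626 and 0.486 CPM in naïve P15 and 2.43 and 2.82 CPM in primed P15, and its primed P15 libraries were above all 4 naïve ones. *Myl3*, the ventricular and slow muscle myosin light chain, fell just outside the level threshold with 10.6 and 7.92 CPM in primed P5, 0.191 and 0.526 CPM in naïve P5, 0.278 and 0.182 CPM in naïve P15 and 0.348 and 0.633 CPM in primed P15.

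The 250 bases before the annotated starts of 2 of these muscle genes and 3 further members are shown because they hold motifs known from muscle, endoderm and general promoters (RefSeq, build GRCm38.p6, 5′ to 3′ on the strand of the gene). Capitals mark GGAATG or its reverse complement, the core bound by TEAD factors in muscle promoters, in *Tnnc1* (chr14:31208062-31208311, plus strand), *Myh7* (chr14:54994627-54994876, minus strand, the more upstream of its 2 windows) and *Tmprss2* (chr16:97611196-97611445, minus strand). They mark GATAAG, the core of the family that includes Gata4, in *Sfrp5* (chr19:42202253-42202502, minus strand), and GGGCGG, a GC box, in *Cdcp1* (chr9:123216039-123216288, minus strand), where both matches overlap.
Tnnc1: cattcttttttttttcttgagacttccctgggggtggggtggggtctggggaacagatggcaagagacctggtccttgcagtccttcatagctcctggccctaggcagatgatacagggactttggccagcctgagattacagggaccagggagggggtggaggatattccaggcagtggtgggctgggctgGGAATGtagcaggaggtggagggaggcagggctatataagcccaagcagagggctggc
Myh7: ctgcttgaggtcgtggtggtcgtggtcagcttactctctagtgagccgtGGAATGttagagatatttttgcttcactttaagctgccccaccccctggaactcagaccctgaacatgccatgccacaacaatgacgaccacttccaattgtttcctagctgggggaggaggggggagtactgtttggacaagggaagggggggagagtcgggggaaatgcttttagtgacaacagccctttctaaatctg
Tmprss2: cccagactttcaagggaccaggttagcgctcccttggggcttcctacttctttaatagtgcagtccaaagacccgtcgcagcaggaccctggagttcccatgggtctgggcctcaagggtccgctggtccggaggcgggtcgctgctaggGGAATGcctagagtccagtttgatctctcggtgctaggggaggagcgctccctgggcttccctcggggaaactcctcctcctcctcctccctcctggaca
Sfrp5: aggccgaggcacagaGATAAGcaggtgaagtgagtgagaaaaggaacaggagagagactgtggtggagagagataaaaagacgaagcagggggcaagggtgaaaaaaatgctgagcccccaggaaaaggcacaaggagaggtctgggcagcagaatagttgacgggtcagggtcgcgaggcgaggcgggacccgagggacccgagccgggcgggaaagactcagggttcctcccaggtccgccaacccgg
Cdcp1: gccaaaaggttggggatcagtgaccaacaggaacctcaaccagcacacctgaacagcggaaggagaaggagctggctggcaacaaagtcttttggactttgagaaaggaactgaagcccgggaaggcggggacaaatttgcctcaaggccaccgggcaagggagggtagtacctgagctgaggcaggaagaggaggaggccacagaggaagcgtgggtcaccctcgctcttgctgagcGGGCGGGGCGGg
A match is a description of letters and not a site of binding. The RefSeq table held windows for 25 of the 33 genes, and 9 motifs were searched on both strands in the 250 bases (a copy of GGGCGG can share bases with the next). GGAATG was present in 5 of the 25 genes (20%) and in 14.4% of the 27025 genes with a window, and GATAAG in 2 (8%) and 7.6%. GGGCGG was in 13 (52%) and 35.4%, GCCNNNGGC in 6 (24%) and 15.4%, TATAAA in 2 (8%) and 14.3%, and CTTTGA in 2 (8%) and 15.8%. The AP-1 motif was in 1 gene (4%) and 7.82% of all, CACGTG in 2 (8%) and 6.86%, and AACCGGTT in 0 and 0.137%. No motif was held by all members.

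Secreted and matrix proteins made up another group. *Sfrp5*, a secreted antagonist of Wnt ligands that marks the anterior visceral endoderm and foregut (ENSMUSG00000018822, chromosome 19, positions 42197971 to 42202252, minus strand), was at 35.7 and 34.5 CPM in primed P5, 1.29 and 0.957 CPM in naïve P5, 0.626 and 0.729 CPM in naïve P15 and 4.63 and 3.74 CPM in primed P15. *Spink1*, a secreted inhibitor of serine proteases, was at 30.8 and 28.4 CPM in primed P5, 0.572 and 1.43 CPM in naïve P5, 1.25 and 1.34 CPM in naïve P15 and 6.66 and 6.62 CPM in primed P15 and had 0 counts in MEFs. *Sema3b*, a secreted semaphorin that guides axons, was at 40.8 and 41.4 CPM in primed P5, 4.53 and 5.21 CPM in naïve P5, 4.87 and 5.65 CPM in naïve P15 and 9.15 and 9.21 CPM in primed P15. In each of the 3 genes both primed P15 libraries were above all 4 naïve ones and far below primed P5.

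*Olfml2a*, an olfactomedin-like extracellular protein, was at 30.3 and 29.1 CPM in primed P5, 1.05 and 1.0 CPM in naïve P5, 0.417 and 1.03 CPM in naïve P15 and 5.79 and 5.24 CPM in primed P15. *Coch*, which encodes the matrix protein cochlin of the inner ear, was at 29.5 and 30.8 CPM in primed P5, 5.81 and 5.55 CPM in naïve P5, 5.7 and 5.29 CPM in naïve P15 and 5.85 and 6.33 CPM in primed P15, so that its primed P15 libraries exceeded the highest naïve library by a small margin. *Lamb3*, the beta chain of the laminin under stratified epithelia (ENSMUSG00000026639, chromosome 1, positions 193207699 to 193343878, plus strand), was at 23.7 and 20.04 CPM in primed P5, 2.57 and 1.87 CPM in naïve P5, 1.67 and 1.76 CPM in naïve P15 and 1.45 and 1.27 CPM in primed P15. Its primed P15 values were below all 4 naïve ones. *Lamb3* overlaps *Hsd11b1* on the opposite strand, and *Hsd11b1* was at 6.75 and 8.23 CPM in primed P5, 0.572 and 0.143 CPM in naïve P5, 0.0696 and 0.122 CPM in naïve P15 and 24.3 and 25.4 CPM in primed P15, an order of groups that differs from that of *Lamb3*.

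Membrane and adhesion proteins of epithelia included the genes with the steepest loss between P5 and P15. *Cdcp1*, a transmembrane protein with CUB domains (ENSMUSG00000035498, chromosome 9, positions 123170824 to 123216038, minus strand), was at 41.2 and 40.7 CPM in primed P5, 8.05 and 7.75 CPM in naïve P5, 4.38 and 6.2 CPM in naïve P15 and 0.174 and 0 CPM in primed P15. The primed P15 libraries held 3 and 0 counts of it and the primed P5 libraries 733 and 648. *Rab25*, a small GTPase of apical recycling in epithelial cells (ENSMUSG00000008601, chromosome 3, positions 88542029 to 88548300, minus strand), was at 30.4 and 27.2 CPM in primed P5, 5.62 and 6.17 CPM in naïve P5, 3.06 and 2.8 CPM in naïve P15 and 0.985 and 0.518 CPM in primed P15. Both genes were thus high at P5 and below all 4 naïve libraries at P15, and primed P15 retained 0.212% and 2.61% of the primed P5 mean CPM.

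*Dsc2*, a desmosomal cadherin, was at 40.8 and 41.4 CPM in primed P5, 3.57 and 3.73 CPM in naïve P5, 3.96 and 2.01 CPM in naïve P15 and 8.4 and 9.1 CPM in primed P15. *Tmprss2*, a transmembrane serine protease of epithelia (ENSMUSG00000000385, chromosome 16, positions 97564682 to 97611195, minus strand), was at 21.2 and 23.9 CPM in primed P5, 0.334 and 0.526 CPM in naïve P5, 0.209 and 0.304 CPM in naïve P15 and 2.26 and 2.76 CPM in primed P15. *Cpm*, a membrane carboxypeptidase, was at 23 and 21.9 CPM in primed P5, 3.91 and 3.92 CPM in naïve P5, 1.6 and 2.01 CPM in naïve P15 and 4.23 and 4.61 CPM in primed P15. In these 3 genes primed P15 remained above the naïve range, unlike *Fermt1*, the kindlin of epithelial integrin adhesion, whose values in the same order were 19 and 19.4 CPM in primed P5, 2.29 and 2.34 CPM in naïve P5, 1.32 and 1.46 CPM in naïve P15 and 2.26 and 1.5 CPM in primed P15.

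*Lrp2*, the endocytic receptor megalin of the visceral endoderm and kidney (ENSMUSG00000027070, chromosome 2, positions 69424340 to 69586065, minus strand), was at 245 and 234 CPM in primed P5, 56.3 and 50.5 CPM in naïve P5, 38 and 39.8 CPM in naïve P15 and 41.1 and 45.3 CPM in primed P15. Its primed P15 libraries lay inside the naïve range. *Slc7a11*, the cystine and glutamate exchanger, was at 85.4 and 93.3 CPM in primed P5, 2.76 and 2.44 CPM in naïve P5, 4.52 and 4.8 CPM in naïve P15 and 16.6 and 15.2 CPM in primed P15. *Clic6*, a chloride intracellular channel protein, was at 43.8 and 41.6 CPM in primed P5, 2.05 and 1.34 CPM in naïve P5, 1.04 and 1.7 CPM in naïve P15 and 5.5 and 5.64 CPM in primed P15, and *Mcoln3*, a cation channel of endosomes, was at 11.1 and 9.49 CPM in primed P5 and at most 1.62 CPM in any other pluripotent library.

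The remaining 9 genes ranged widely in level. *Capn6*, a calpain that lacks the protease active site (ENSMUSG00000067276, chromosome X, positions 143802231 to 143827414, minus strand), was at 128 and 131 CPM in primed P5, 4.0 and 3.78 CPM in naïve P5, 8.0 and 5.59 CPM in naïve P15 and 29.1 and 31.6 CPM in primed P15. *Greb1l*, a gene needed for kidney development, was at 89.7 and 86.5 CPM in primed P5, 7.0 and 8.32 CPM in naïve P5, 6.89 and 7.54 CPM in naïve P15 and 14.7 and 14.9 CPM in primed P15. *Frmpd2*, a scaffold with FERM and PDZ domains, was at 20.03 and 19.5 CPM in primed P5 and 2.32 and 1.84 CPM in primed P15, with 3 and 0 counts in naïve P5 and 1 and 0 counts in naïve P15. *Frmpd2* was thus almost without reads in naïve cells and present in both primed groups. The other 6 (*Tuba8*, *Sel1l3*, *Tmem184a*, *Akap5*, *Rgl3* and *Ppp1r16b*) were between 10.6 and 31.9 CPM in primed P5 libraries and at most 7.43 CPM in any other pluripotent library. Per kilobase of merged exon, the primed P5 level was highest for *Spink1* (40.6 CPM per kb), *Sfrp5* (18.5), *Hesx1* (17.9), *Rab25* (17.2) and *Capn6* (16.6) and lowest for *Ppp1r16b* (1.2).

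The loss of the 33 genes at P15 set them apart by rule from most genes that were high early. In primed P5 cells 333 genes had a level of at least 10 and at least 4 times that of both naïve groups. At P15, 236 of these were within 2-fold of primed P5 or higher, 61 were 2 to 4 times lower, and 36 were at least 4 times lower, namely the 33 genes and the 3 keratins. The median ratio of primed P5 to primed P15 over the 333 genes was 1.45. The share of the primed P5 level that the 33 genes retained at P15 had a median of 16.5% and ranged from 0.212% (*Cdcp1*) to 23.5% (*Sel1l3*). Counted as the primed minus naïve difference at each passage, a median of 10.2% of the P5 difference was left at P15, with a range from -15.7% (*Cdcp1*) to 18.9% (*Six3*).

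**Figure D2:**
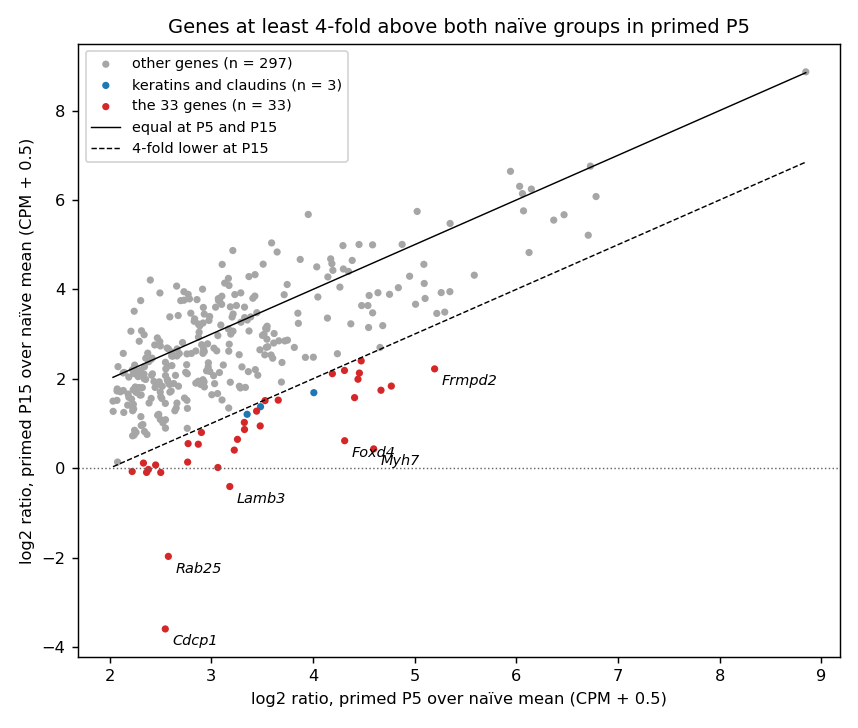
Ratio of primed P5 (x axis) and of primed P15 (y axis) to the mean of both naïve groups, log2 of levels (CPM plus 0.5), for the 333 genes at least 4-fold above both naïve groups in primed P5. The 33 genes (red) and 3 keratins (blue) lie under the dashed line of a 4-fold lower level at P15 by the rule, and *Cdcp1*, *Rab25* and *Lamb3* lie lowest, below 0.

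Whether a remnant of the early level was still seen at P15 was asked by comparing primed with naïve cells at P15. The rule keeps both groups at least 4 times under the primed P5 level but does not order them, and the primed P5 libraries do not enter the fit. Calls needed an adjusted p below 0.01 together with a change of 2-fold or more (edgeR's quasi-likelihood test, Benjamini-Hochberg over 15733 genes). Of the 33 genes 32 were tested, and *Foxd4* had too few counts. In all, 15 (46.9%) were called higher in primed P15 cells, where 12.2% of all genes tested were, and 2 (6.25%) were called lower, where 11% were. Of the genes high early, chosen by the same limits on primed P5 and naïve cells and counted with the 33 and the keratins, 332 were tested, of which 309 were called higher and 2 lower, the latter both among the 33. The 33 were thus called higher in a smaller share than the genes high early as a whole. From these the rule took, keratins aside, those with the lowest primed P15 level relative to primed P5. The median log2 fold change was 1.16 over the 32 genes and -0.0039 over all genes tested, and 27 were above 0. *Frmpd2*, *Six3*, *Tmprss2* and *Rbm24* passed the count filter through their primed P15 libraries alone and *Cdcp1* through its naïve P15 libraries alone, so that they had to differ to be tested. Of the other 27, 11 were called higher and 1 lower, with a median of 0.93.

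Among the genes called higher, the transcription factors rose from naïve to primed cells at P15 by a log2 fold change of 3.79 ± 0.56 (SE, n = 2 per group, adjusted p = 2.3e-07) for *Six3*, 1.48 ± 0.24 (SE, n = 2 per group, adjusted p = 1.41e-06) for *Gata4* and 1.39 ± 0.30 (SE, n = 2 per group, adjusted p = 0.00012) for *Hesx1*. *Six3* passed the count filter through primed P15 alone, and *Foxd4* was not tested. The Wnt antagonist *Sfrp5* had 2.50 ± 0.35 (SE, n = 2 per group, adjusted p = 1.03e-07). The protease inhibitor *Spink1* had 2.24 ± 0.27 (SE, n = 2 per group, adjusted p = 2.74e-09), and the matrix protein gene *Olfml2a* had 2.77 ± 0.33 (SE, n = 2 per group, adjusted p = 3.3e-09). None of the secreted and matrix genes was called lower.

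*Frmpd2* had the largest fitted value, 5.61 ± 0.78 (SE, n = 2 per group, adjusted p = 7.92e-08), which rests on 1 count in naïve P15. Its ratio of 72 counts to 1, corrected for the totals, was 64.1 with an exact 95% interval of 11.1 to 2566 (counting error only). *Tmprss2* had 3.14 ± 0.49 (SE, n = 2 per group, adjusted p = 9.36e-07) and *Rbm24* 2.13 ± 0.41 (SE, n = 2 per group, adjusted p = 2.57e-05). *Frmpd2*, *Tmprss2* and *Rbm24* passed the count filter through primed P15 alone, so that they had to differ to be tested. Further genes called higher were *Capn6* at 2.06 ± 0.14 (SE, log2), *Clic6* at 1.89 ± 0.28, *Sel1l3* at 1.68 ± 0.24, *Slc7a11* at 1.66 ± 0.16, *Dsc2* at 1.47 ± 0.23 and *Cpm* at 1.18 ± 0.28.

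The genes called lower were *Cdcp1* and *Rab25*, of which *Cdcp1* passed the count filter through naïve P15 alone. *Cdcp1* had a log2 fold change of -5.92 ± 0.52 (SE, n = 2 per group, adjusted p = 1.52e-12), with 3 counts in both primed P15 libraries together and 165 in naïve P15. The ratio of naïve to primed P15 was 61.8 with an exact 95% interval of 20.8 to 302.7 (counting error only). *Rab25* had -2.05 ± 0.38 (SE, n = 2 per group, adjusted p = 1.24e-05). *Lamb3*, the third gene below the naïve range at P15, missed the threshold at -0.44 ± 0.37 (SE, n = 2 per group, adjusted p = 0.297).

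Of the muscle genes, *Rbm24* was called but passed the count filter through primed P15 alone. *Myh7* had 0.52 ± 0.48 (SE, n = 2 per group, adjusted p = 0.342), *Tnnc1* 0.61 ± 0.50 (SE, n = 2 per group, adjusted p = 0.281) and *Tnnt1* -0.37 ± 0.22 (SE, n = 2 per group, adjusted p = 0.133). The differences of these 3 genes were within about 2 standard errors of 0. *Lrp2*, at counts high enough to resolve a small difference, had 0.04 ± 0.08 (SE, n = 2 per group, adjusted p = 0.658), and *Coch* 0.05 ± 0.20 (SE, n = 2 per group, adjusted p = 0.853). *Sema3b* (0.69 ± 0.18) and *Greb1l* (0.93 ± 0.15) had an adjusted p under 0.01 at less than a 2-fold change.

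**Figure D3:**
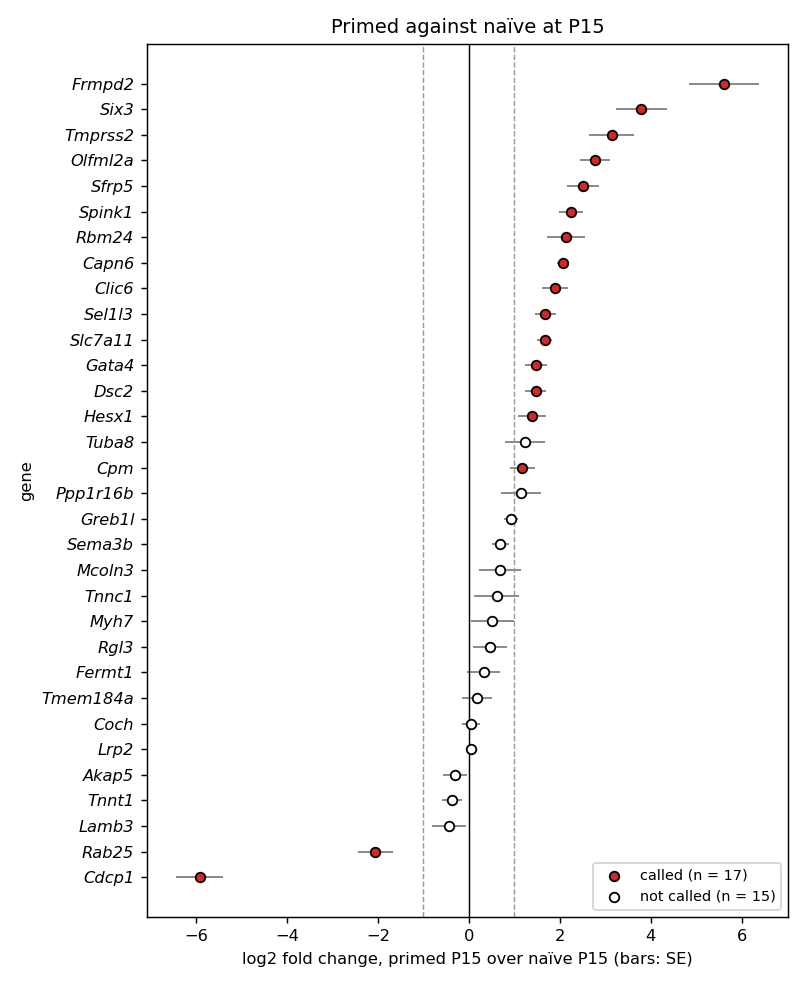
Log2 fold change of primed over naïve cells at P15 (x axis, points, with bars for the standard error of the fit to 2 libraries per group) for the 32 genes tested, ordered by value. Filled points are the 17 genes called, 15 above 0 and 2 below, and dashed lines mark a 2-fold change. Of these, *Frmpd2*, *Six3*, *Tmprss2* and *Rbm24* passed the count filter through primed P15 alone and *Cdcp1* through naïve P15 alone.

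By the values of single libraries, both primed P15 libraries were above all 4 naïve libraries in 22 of the 33 genes, below them in 3 (*Cdcp1*, *Rab25* and *Lamb3*) and overlapping with them in 8. Of the 10410 genes with a level of at least 10 in primed P5, primed P15 was above all naïve libraries in 45.7% and below them in 29.1%. The 8 genes that overlapped were *Tnnt1*, *Tnnc1*, *Fermt1*, *Lrp2*, *Mcoln3*, *Tmem184a*, *Akap5* and *Rgl3*. They include 2 of the 4 muscle genes and none of the transcription factors or secreted proteins.

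The naïve cultures served as a measure of change with passage in the absence of F/A medium. Of 29 members tested between naïve P15 and naïve P5, 0 were called higher in naïve P15 (0.414% of 15683 genes were; 2 members had an unadjusted p under 0.05 in that direction, and DESeq2's Wald test also called 0) and 2 were called lower (0.721% of genes were). *Cpm* fell by 1.08 ± 0.25 on the log2 scale (SE, n = 2 per group, adjusted p = 0.00979) and *Gata4* by 1.05 ± 0.22 (adjusted p = 0.0054). Both lie near the thresholds, and neither was called by DESeq2's Wald test or without the low-count filter. Without the first naïve P15 library *Cpm* had -0.95 (adjusted p = 0.0162) and was not called, while *Rab25* had -1.06 and was. *Rab25* (-0.99 ± 0.20) and *Lrp2* (-0.43 ± 0.07) had an adjusted p under 0.01 at less than a 2-fold change. The median over the 29 genes was -0.35 on the log2 scale against 0.00068 over all genes tested, and 22 were below 0. *Tmprss2*, *Six3*, *Foxd4* and *Frmpd2* were not tested for lack of counts. This comparison shares the naïve P15 libraries with the comparison at P15.

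The MEF library, which the rule did not use, gives the level of the genes in the feeder cell type without replicates. *Capn6* was at 220.5 CPM in MEFs, 1.70 times its primed P5 mean, and was the only member above primed P5. A further 5 genes were at most 4 times below their primed P5 level when 0.5 CPM was added to both, with 23.2 CPM for *Slc7a11*, 11.9 for *Olfml2a*, 10.1 for *Gata4*, 4.56 for *Akap5* and 3.28 for *Tnnc1*. Of the 33 genes, 21 were under 1 CPM, 6 of them at 0 counts (a limit of 0.117 CPM), and 19 were below each of the 8 pluripotent libraries. *Capn6* was at 4.0 and 3.78 CPM in naïve P5 and 8.0 and 5.59 CPM in naïve P15. The part of fibroblast RNA in these values was not tested.

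**Figure D4:**
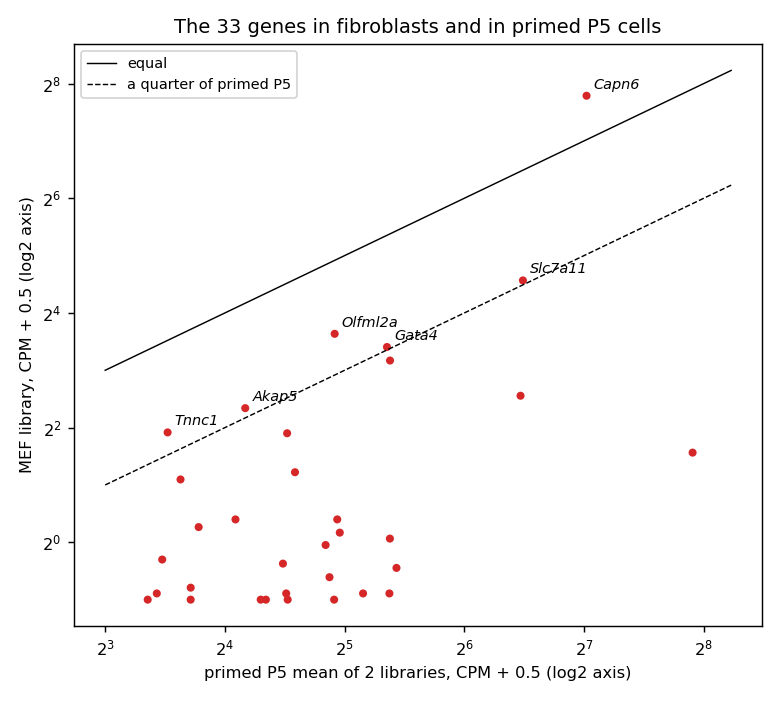
Level of the 33 genes in the MEF library (y axis, CPM plus 0.5) against their mean in the 2 primed P5 libraries (x axis, CPM plus 0.5), both on log2 axes. *Capn6* lies above the line of equal levels, 5 further named genes lie on or above the dashed line (4 times below primed P5), and 21 genes are under 1 CPM in MEFs.

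Several lists of lineage and epithelial genes hold members, and the calls among their other genes are described here. How far a lineage moved was not tested. The primed P5 libraries enter both comparisons used here (primed P5 against naïve P5 and primed P15 against primed P5), which therefore share samples. Some list genes with few counts passed the count filter through a single group alone, so that they had to differ to be tested. The numbers of calls include them. Where 2 log2 fold changes are given for a gene, the first is from the former comparison and the second from the latter, and each named gene passed the thresholds in both unless stated. Of all genes, 13.5% were called higher and 8.85% lower in primed P5 than in naïve P5, and 3.18% were called higher and 8.43% lower in primed P15 than in primed P5. The list of epithelial junction, polarity and surface protease genes has *Dsc2*, *Rab25* and *Lamb3* as members. Of its other genes, 7 of 40 tested were called higher and 0 lower in primed P5 than in naïve P5, and 0 of 40 were called higher and 27 lower in primed P15 than in primed P5. In primed P15 against naïve P15, 3 of 40 were higher and 18 lower. *Cdh1*, the E-cadherin of adherens junctions, had 0.21 ± 0.03 (SE), short of a 2-fold change, and -2.03 ± 0.05. *Dsp*, the desmosomal linker desmoplakin, had 2.34 ± 0.05 and -1.18 ± 0.06, and *Prss8*, a surface protease, had 1.85 ± 0.09 and -1.40 ± 0.09.

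The list of primitive and visceral endoderm genes has *Gata4*, *Lrp2* and *Spink1* as members. Of its other genes, 13 of 23 were called higher and 3 lower in primed P5 than in naïve P5, and 2 of 24 were higher and 5 lower in primed P15 than in primed P5. Several genes of the list were near the count floor and were not tested. Among these, *Ttr*, *Afp*, *Apoa4*, *Apoc2*, *Apom*, *Trf* and *Fgb* had a mean of at most 0.288 CPM in primed P5. *Hnf4a*, a nuclear receptor of the visceral endoderm, had 3.68 ± 0.38 and -3.17 ± 0.36, and *Dkk1*, a Wnt antagonist of the anterior visceral endoderm, had 6.14 ± 0.16 and -1.16 ± 0.09. The mean of *Hnf4a* was 0.286 CPM in naïve P5 and 0.433 CPM in primed P15. It passed the count filter through primed P5 alone in both comparisons, so that it had to differ to be tested. *Cited1* and *Amot* were the only others called higher and then lower. The remaining genes called higher in primed P5 were not called in the second comparison. Among them were *Foxa2* (6.30 ± 0.15 and 0.83 ± 0.06), *Sox17* (5.74 ± 0.19 and -0.85 ± 0.10), *Sox7* (2.78 ± 0.21 and -0.22 ± 0.13) and *Gata6* (2.06 ± 0.12 and -0.44 ± 0.09). *Foxa2*, *Sox17* and *Gata6* are also on the mesendoderm and definitive endoderm list, which has no members. Of that list, 17 of 24 genes were called higher and 3 lower in primed P5 than in naïve P5. The 3 genes of the primitive and visceral endoderm list called lower in primed P5 were *Cubn*, *Amn* and *Lama1*. *Cubn*, the endocytic partner of *Lrp2*, was at -4.16 ± 0.23, *Amn*, which binds its product, at -1.08 ± 0.29, and the laminin gene *Lama1* at -1.58 ± 0.06. The pair of this list called higher in primed P15 than in primed P5 was *Lefty1*, a Nodal antagonist, at 2.08 ± 0.05 and *Apoa1*, an apolipoprotein, at 1.80 ± 0.56.

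Of the other genes of the mesoderm, heart and vessel list, which has *Gata4* as a member, 10 of 29 were called higher and 5 lower in primed P5 than in naïve P5, and 2 of 26 were higher and 9 lower in primed P15 than in primed P5. *Tbx20*, a factor of heart development, had 2.74 ± 0.23 and -2.72 ± 0.23. *Myl7*, the atrial myosin light chain, had 2.66 ± 0.24 and -2.52 ± 0.24, and *Actc1*, the cardiac actin, had 5.76 ± 0.16 and -1.20 ± 0.09. *Myl4*, another atrial myosin light chain, had 0.51 ± 0.24 and was not called in the first comparison, and -2.83 ± 0.37 in the second. The heart factors *Hand1* (-0.24 ± 0.36), *Hand2* (0.64 ± 0.33), *Tbx5* (-0.099 ± 0.43) and *Nkx2-5* were not called in the first comparison. The mean of *Nkx2-5* was 0.263 CPM in primed P5 and 0.669 CPM in naïve P5. In the second comparison *Hand1* was called lower (-2.71 ± 0.53) and *Tbx5* higher (1.49 ± 0.34). *Hand2* was not called there, and *Nkx2-5* was not tested. *Pecam1*, an adhesion molecule of vessels, was lower in both, at -2.48 ± 0.08 and -3.14 ± 0.24. *Tnnt2*, the cardiac troponin T, was at 29.4 CPM in MEFs against 2.14 and 1.95 CPM in primed P5. It had 3 and 7 counts in naïve P5 and 8 and 8 counts in primed P15. *Tnnt2* in both comparisons and *Isl1* in the second passed the count filter through primed P5 alone. Both genes were called higher and then lower, and in those comparisons they had to differ to be tested. Of the neural and neural crest list, with *Six3* as a member, 5 of 19 other genes were higher and 5 lower in primed P5 than in naïve P5, and 2 of 18 were higher and 1 lower in primed P15 than in primed P5. The genes named from these lists were chosen after their values were seen. Lists without members also held genes called lower in primed P15 than in primed P5. These were 12 of 23 for trophoblast, 9 of 18 for surface ectoderm and amnion and 8 of 13 for germline. The trophoblast calls include *Krt8* and *Krt18*, which met the thresholds of the rule, so that their fall was fixed in advance. For cytokines they were 4 of 26, for retinoic acid response 2 of 15, for p53 targets 1 of 18 and for mesendoderm and definitive endoderm 0 of 21. Of the marker lists, 1 of 30 fibroblast, 1 of 10 primed, 6 of 10 naïve and 1 of 5 shared pluripotency genes were lower.

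**Figure D5:**
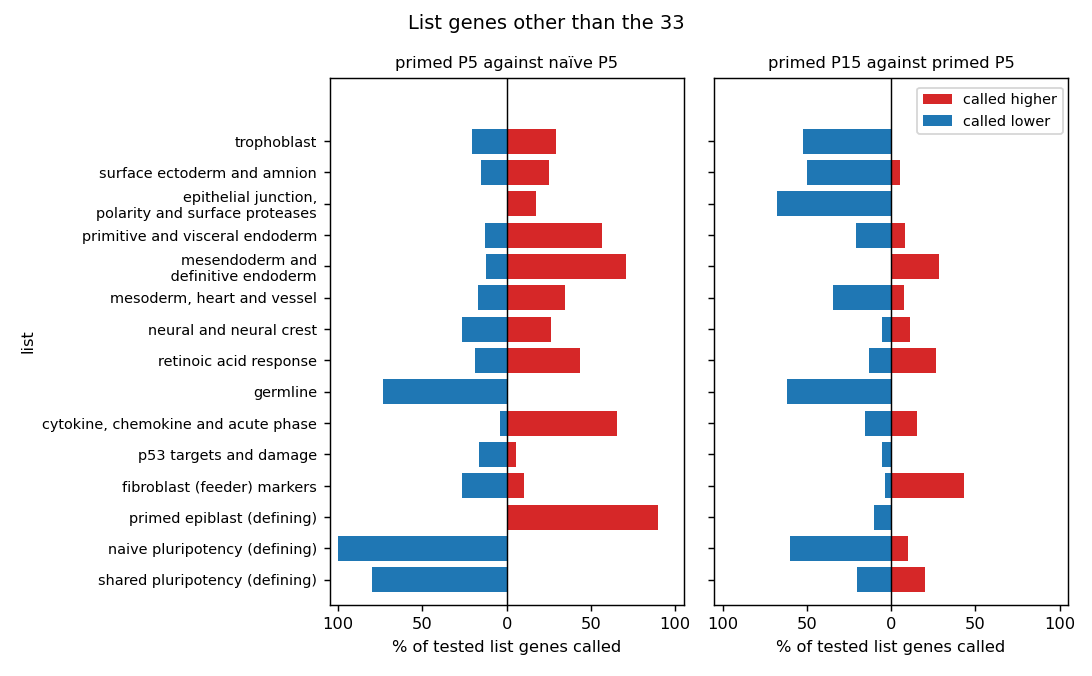
Share of tested genes of each list, the 33 genes left out, that were called higher (red, to the right) or lower (blue, to the left), in primed P5 against naïve P5 and in primed P15 against primed P5, in percent. *Krt8* and *Krt18*, which met the same thresholds, were kept in the trophoblast list. In the epithelial list 7 of 40 genes were higher at P5 and 27 of 40 lower from primed P5 to primed P15, while no other bar on the left of the second panel is longer.

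The 33 genes lie on 16 chromosomes, with 5 on chromosome 14, and no pair of starts is within 100 kb. The closest pair was *Tnnc1* and *Frmpd2*, 2263 kb apart. Of the 33 genes, 14 overlap another annotated gene, and in 5 the other gene had at least 50 counts in a library (*Lamb3* with *Hsd11b1*, *Six3* with *Six3os1*, *Tnnc1* with *Nisch*, *Tmem184a* with *Mafk* and *Greb1l* with *Nutf2-ps2*), each on the opposite strand. The strand setting of the counting is not given in the sources used here, and without strand the reads of such pairs cannot be told apart. *Six3os1* was at 5.29 and 4.46 CPM in primed P5, 0.0477 and 0 CPM in naïve P5, 0.0696 and 0 CPM in naïve P15 and 1.33 and 1.38 CPM in primed P15, highest in primed P5 and next in primed P15 as *Six3* was. *Nisch*, overlapping *Tnnc1*, was at 568 and 564 CPM in primed P5, 367 and 371 CPM in naïve P5, 347 and 363 CPM in naïve P15 and 555 and 508 CPM in primed P15.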

How the data were processed

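RNA-seq of 9 libraries was used (2 per group and 1 of MEFs), grouped by their deposited titles. The authors purified poly(A) RNA, trimmed reads with Cutadapt, aligned them with HISAT2 to mm10, and used featureCounts on Ensembl genes (multi-mapping and strand settings not given in the sources used here). The deposited values are raw counts per gene. The 92 ERCC entries, all 0, were dropped. Names and coordinates of 54165 of the 54232 IDs came from GENCODE M21 (GRCm38), and promoters from RefSeq.

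CPM were computed from column totals, and the level adds a pseudocount of 0.5. Tests used edgeR 4.0.16 in R 4.3.3 (TMM, genes with 10 or more counts in 2 or more of the compared 4 libraries, quasi-likelihood). DESeq2 1.42.0 served as an alternative. The code was tested on simulated data. Replicate libraries differed by more than sampling noise (chi-square per gene 2.09 to 3.28). Other alternatives were other scalings, filters, pseudocounts and thresholds, a fit of all 8 libraries, a replicate block, and each library left out.

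The members and lists were chosen with earlier results of these data known, and the comparisons with primed P5 over the lists were added after seeing the data. Genes named were those on the lists, the 20 of highest primed P5 level per kb, the 5 of largest change in each direction and comparison, those next to a threshold, and the 5 at each extreme of MEF to primed P5 or primed P15 to naïve ratio. Genes outside this rule were named after their values were seen.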

Additional observations from a re-analysis of the deposited data

How the results depend on the processing

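The number of genes that met the rule was 33, and 20 with TMM-scaled library sizes, 52 at a fold of 3 and 16 at a fold of 5. It was 30 to 33 with a pseudocount of 1 or 0, 49 and 22 at levels of 5 and 20 CPM, 25 when each primed P5 library was set against the highest other library, and 32 to 35 with each library left out in turn. At P15, 15 to 17 genes were called higher and 2 lower in primed cells under every alternative. *Tuba8* and *Greb1l* were called higher with library size alone (1.33 and 1.03), *Tuba8* and *Ppp1r16b* in the fit of all 8 libraries (1.23 and 1.15) and without the second primed P15 library (1.37 and 1.41). Scaling by library size alone moved the median of all genes in this comparison from -0.0039 to 0.10 on the log2 scale.

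Between the naïve groups, 1 gene was called lower in naïve P15 with DESeq2's size factors, 0 without the low-count filter and 0 by DESeq2's Wald test, against 2. With each library left out, 0 to 1 genes were called higher (*Capn6*, without the second naïve P15 library) and 2 to 3 lower. Leaving out 1 library turned the sign of several values that were not called. At P15 the ranges were -0.014 to 0.11 (*Coch*), -0.015 to 0.12 (*Lrp2*), -0.17 to 0.69 (*Tmem184a*) and -0.064 to 1.08 (*Tnnc1*). Between the naïve groups they were -0.091 to 0.026 (*Coch*), -0.68 to 0.078 (*Clic6*), -0.85 to 0.14 (*Dsc2*), -0.12 to 1.18 (*Spink1*), -0.34 to 0.032 (*Rbm24*), -0.18 to 0.051 (*Greb1l*), -1.26 to 0.022 (*Olfml2a*), -0.43 to 0.90 (*Myh7*) and -0.46 to 0.15 (*Tnnc1*) (log2). The causes were not tested. A fit that leaves a group with 1 library assumes that it varies like the other group.

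The deviations of same-numbered libraries correlated between -0.106 and 0.0759, so that the numbers did not pair the samples, and a block for the replicate number gave 15 genes higher and 2 lower at P15, and 0 higher and 2 lower between the naïve groups. In the epithelial list, library size alone gave 11 in place of 7 genes higher in primed P5 than in naïve P5. Genes with few counts, such as *Foxd4*, could not be compared at this depth.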

Other observations

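The same thresholds with another group as the high one were met by 3 genes for naïve P5 (*Cubn*, *Hspa1a* and the pseudogene *Dppa5c*), 0 for naïve P15 and 13 for primed P15, against 36 for primed P5 with the keratins. The 13 genes of primed P15 include *Wnt3* and *Wnt8a*, ligands of the primitive streak, and *Ednrb*, the endothelin receptor.

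The keratins left out by the rule, filament proteins of simple epithelia, met the same thresholds. *Krt8* was at 795 and 787 CPM in primed P5, 56.5 and 59 CPM in naïve P5, 80.4 and 85 CPM in naïve P15 and 186 and 180.5 CPM in primed P15. *Krt18*, its partner, was at 504 and 514 CPM in primed P5, 40.8 and 41.4 CPM in naïve P5, 55.7 and 59.5 CPM in naïve P15 and 116 and 113 CPM in primed P15, and *Krt19* was at 298 and 307 CPM in primed P5, 20.4 and 21.1 CPM in naïve P5, 15.4 and 16.3 CPM in naïve P15 and 61.3 and 59.1 CPM in primed P15. Among the pluripotent libraries all were lowest in naïve cells and intermediate in primed P15, and in the MEF library they were lower still, at 6.32 CPM (*Krt8*), 7.21 CPM (*Krt18*) and 2.96 CPM (*Krt19*).

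Just inside the fold threshold of 4 were *Sel1l3* (4.05), *Tnnt1* (4.15) and *Capn6* (4.21), and just outside were *Pga5* (3.89), *Slc15a2* (3.87) and *Tuft1* (3.84). Just inside the level threshold were *Foxd4* (10.2) and *Mcoln3* (10.8), and just outside *Tal2* (9.87) and *Myl3* (9.75).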
